A study of Mus musculus with 15 samples.

Results

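The clustered protocadherins were taken as the protein-coding genes whose symbols start with Pcdha, Pcdhb or Pcdhg. They numbered 57 of the 53337 genes to which the transcripts of the data were summed. The alpha cluster held 14 members, the beta cluster 22 and the gamma cluster 21, all on the plus strand of mouse chromosome 18 (GRCm38), from 36930184 to 37841873. Of the alpha members, 12 were alternate isoforms and the other 2 were the C-type isoforms Pcdhac1 and Pcdhac2. Of the gamma members, 12 were gamma A isoforms, 6 were gamma B isoforms and 3 were the C-type isoforms Pcdhgc3, Pcdhgc4 and Pcdhgc5. Pcdhgb8, annotated as a polymorphic pseudogene, was left out by the rule.

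Messenger RNA was sequenced from the dorsal forebrain of C57BL/6J mouse offspring at embryonic day 18, whose dams were infused with arginine vasopressin (AVP) or with saline vehicle from an osmotic minipump. There were 4 AVP males, 4 vehicle males, 3 AVP females and 4 vehicle females, each a separate library, 15 in all. The labels give 16 samples from 8 litters, and the study states that it left out an AVP female as an outlier of high variance. As the study describes it, the libraries of a group came from independent litters, so within a gender the spread is between litters. With 16 samples from 8 litters, the males and females of a treatment then came from the same litters. The fits that join the genders treat such littermates as independent, since no label says which libraries share a litter. All groups share the strain, the tissue and the age, and differ in the infusion of the dam and in gender.

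Clustered protocadherins are cadherin-like cell surface proteins through which neurites of the same neuron recognize each other. Each neuron switches on a few of the alternate promoters at random, with the help of CTCF and cohesin, and the protein isoforms bind only to their own kind on the opposing membrane. Alpha and gamma isoforms each have their own first exon, for the extracellular and transmembrane parts, spliced to constant exons for a cytoplasmic tail shared within the cluster. Beta isoforms are made from single exons and lack that tail. The C-type promoters stand last in the alpha and gamma arrays and are used less randomly than the alternate ones. These genes are known for self-avoidance of dendrites, axon tiling, and, in the gamma cluster, the survival of interneurons.

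The values were TPM, a transcript level per length that sums to the same total in each library, so the number of reads behind a value is unknown. In the annotation, the alpha constant exons measured 59, 89 and 2712 nucleotides and were shared by 14 genes, and the gamma constant exons measured 59, 89 and 1971 nucleotides and were shared by 21. Reads from those exons cannot be placed in 1 isoform and were divided among the isoforms by the authors' quantification. The share of a transcript's sequence that can be placed was measured as the percent of its 31-base windows found in no other gene. For the leading transcript of each member it ran from 77.5% to 100% in beta, from 32.2% to 58.3% in gamma A, from 42.1% to 50.5% in gamma B and from 2.18% to 43.6% in the alternate alphas. The lowest, at 2.18%, was that of Pcdha4. GENCODE gives the symbol Pcdha11 to 2 genes, and the first of them along the locus, ENSMUSG00000007440, is called Pcdha10 here after RefSeq.

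All 12 dorsal forebrain markers of the list averaged at least 1 TPM, and their sum ran from 1271 to 1803 TPM in the AVP males, from 1506 to 1633 in the vehicle males, from 1487 to 1656 in the AVP females and from 1361 to 1662 in the vehicle females. The library labelled vehicle male 12 had 266 TPM of Xist and 0.489 TPM summed over 4 Y-linked genes, which is the pattern of the female libraries. It was kept under its label. Values without it are given beside some of the results in males and between the genders, and the other results of those comparisons include it. AVP female 11 stood apart in the members. It held the lowest value of 52 of the 57 members. Among the 52 members that reached 1 TPM in 50% or more of the libraries, 96.2% were lowest there, against 31.9% of the 15026 other genes passing the same filter. Their median deviation from the mean of all libraries in AVP female 11 was -0.61 on the log2(TPM + 0.5) scale, against -0.17 for the other genes. The members' leading transcripts had a median length of 4713 nucleotides. In log2 TPM, other genes with leading transcripts of at least 5000 nucleotides were at a median of -0.35 there. Those of at most 1500 nucleotides were at -0.01. The nonclustered protocadherins also had their lowest sum there, 94.6 TPM. In AVP female 11, summed red blood cell markers, 13660 TPM, and meningeal markers, 497 TPM, were the highest of all libraries. Its summed interneuron markers, 229 TPM, and oligodendrocyte precursor markers, 34.8 TPM, were the lowest. Choroid plexus markers summed to 1378 TPM there, and ran from 3.48 TPM in vehicle male 13 to 2263 TPM in AVP female 3. The part of these markers in the result was not tested. In bulk tissue, fewer cells of a type and less RNA per cell cannot be told apart.

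**Figure D1:**
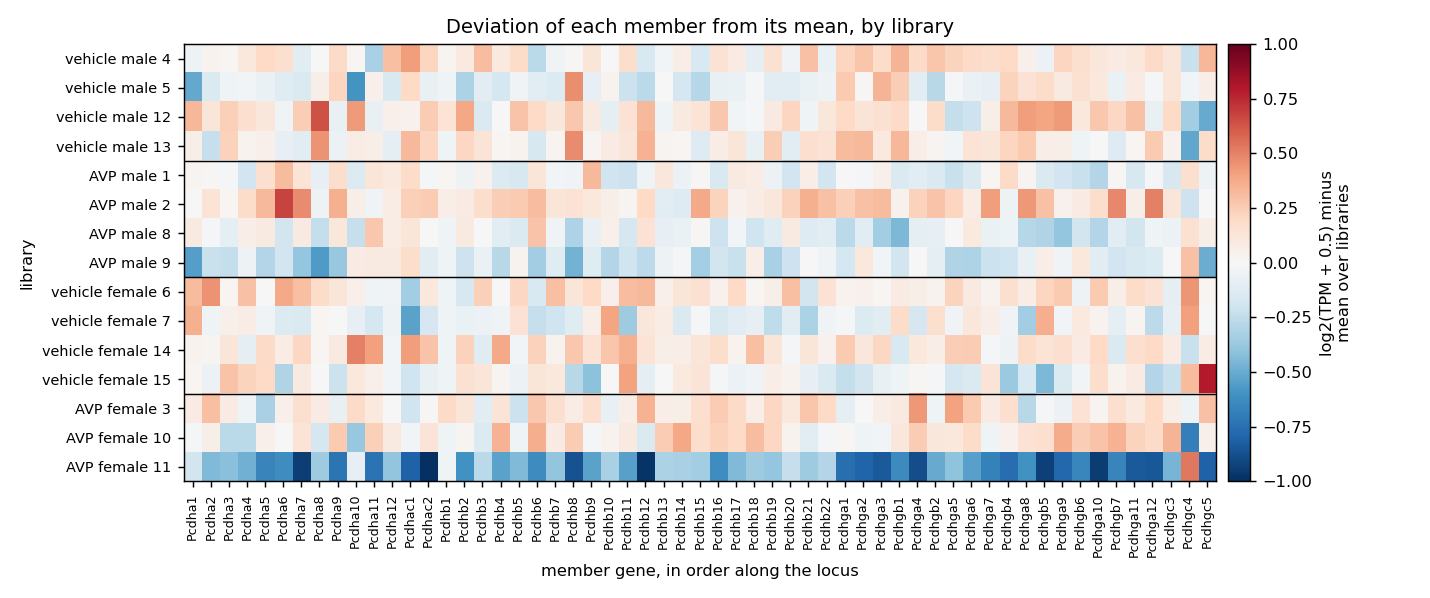
Colour shows each member's log2(TPM + 0.5) in a library minus its mean over the 15 libraries, with members in order along the locus on the horizontal axis and libraries by group on the vertical axis. AVP female 11 is low in nearly all members, with a median deviation of -0.61 over the members that passed the filter, while its Pcdhgc4 is high.

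The gamma cluster carried most clustered protocadherin RNA. Summed over its members, it measured 299 ± 17.5 TPM (SD, n = 15), alpha 72.5 ± 9.50 TPM and beta 56.6 ± 6.84 TPM. Gamma thus made up 70.0% ± 2.20 of the members' TPM, alpha 16.9% ± 1.41 and beta 13.2% ± 0.934 (SD, n = 15). In every library the order was gamma, alpha, beta. Gamma levels ran from 253 TPM in AVP female 11 to 329 TPM in vehicle female 6.

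The C-type isoforms held both the highest levels and some of the lowest. Pcdhgc4, which is needed for the survival of cortical interneurons, averaged 87.3 ± 21.5 TPM (SD, n = 15), and Pcdhgc3, the gamma isoform known to promote dendrite branching, averaged 77.3 ± 10.1 TPM. Their order was not stable, since Pcdhgc4 was above Pcdhgc3 in 8 of 15 libraries. Both lay above the next gene, Pcdhga11 at 15.7 ± 2.56 TPM, in 15 of 15 libraries, Pcdhgc3 by a ratio of means of 4.92. The rank of Pcdhgc4 rests on how reads of the constant exons were divided. Of its TPM, 81.6% was assigned to a short transcript with 153 bases of its own, and its full-length transcript averaged 14.9 TPM. Pcdhac2, known for the tiling of serotonergic axons, was the highest alpha isoform at 11.6 ± 2.17 TPM and exceeded Pcdhac1, at 1.48 ± 0.441 TPM, in 15 of 15 libraries, by a ratio of means of 7.85. Pcdhgc5, the last gamma isoform, was at 2.51 ± 0.789 TPM, the lowest of its cluster. Together the C-type isoforms made up 17.9% ± 1.82 of alpha TPM and 55.9% ± 5.38 of gamma TPM.

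The alternate isoforms lay much closer together. The 12 gamma A isoforms averaged from 3.09 to 15.7 TPM, with a median of 8.17, and the 6 gamma B isoforms from 3.44 to 12.1 TPM, with a median of 5.77. Highest among them were Pcdhga11 and Pcdhgb6, at 12.1 ± 1.71 TPM, in this order in 15 of 15 libraries. Pcdhgb4 at 3.44 ± 0.676 TPM and Pcdhga9 at 3.09 ± 0.694 TPM were the lowest and did not keep their order, with Pcdhgb4 higher in 11 of 15. All 21 gamma members reached 1 TPM in every library.

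Among the 12 alternate alphas the median level was 5.40 TPM. Pcdha12 at 7.92 ± 0.858 TPM and Pcdha9 at 7.42 ± 1.37 TPM led, with Pcdha12 higher in 10 of 15 libraries. At the other end, 2 isoforms were very low, Pcdha1 at 0.717 ± 0.208 TPM and Pcdha8 at 0.342 ± 0.178 TPM. Pcdha8 stayed under 1 TPM in every library, while its neighbours along the locus, Pcdha7 and Pcdha9, averaged 5.44 and 7.42 TPM.

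The 22 beta genes were the lowest as a class, with a median level of 1.87 TPM, although a median of 88.2% of their 31-base windows were their own. Pcdhb20 averaged 6.50 ± 0.815 TPM, Pcdhb7 5.99 ± 0.732 TPM and Pcdhb17 5.78 ± 0.705 TPM. Pcdhb20 was above Pcdhb7 in 13 of 15 libraries, and Pcdhb7 was above Pcdhb17 in 9 of 15. Pcdhb14 at 0.966 ± 0.169 TPM and Pcdhb2 at 0.862 ± 0.217 TPM were low in every group. Pcdhb1, the first gene of the array, averaged 0.0158 TPM and was listed at 0 in 10 of 15 libraries.

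**Figure D2:**
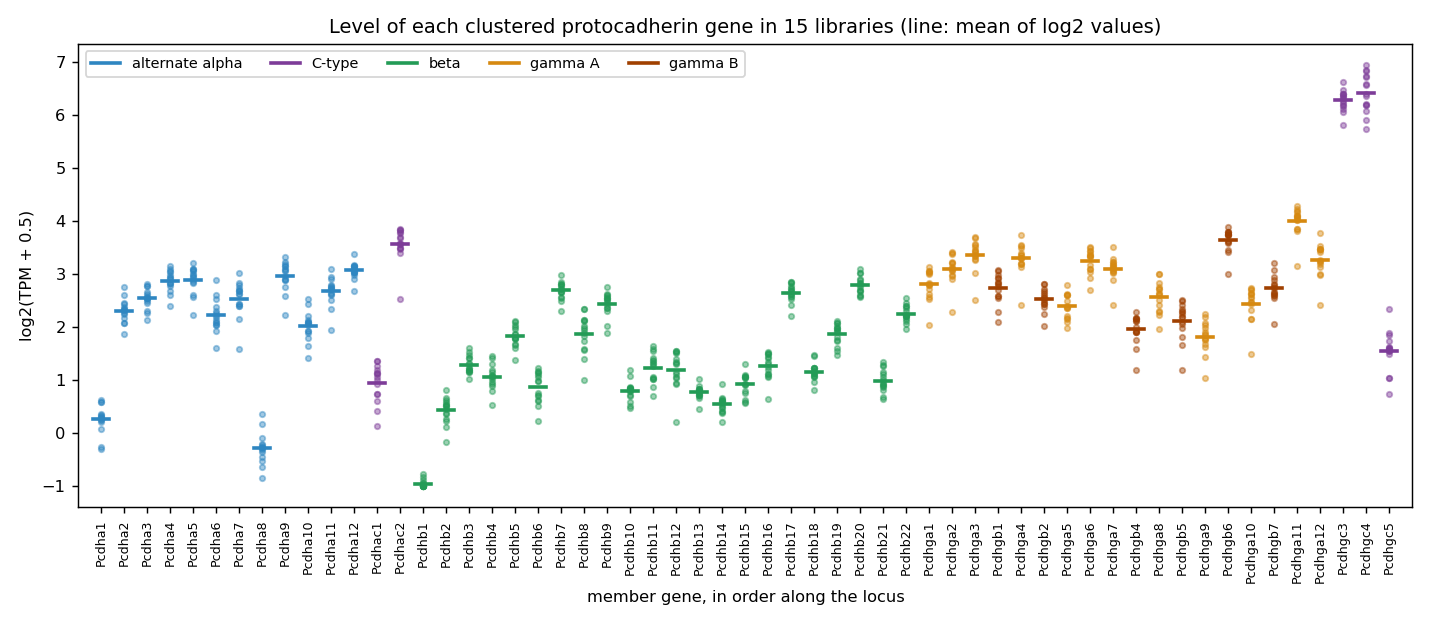
Each point is 1 library's log2(TPM + 0.5) for a member, in order along the locus, and each line is the mean of the 15 libraries, coloured by class. Pcdhgc3 and Pcdhgc4 stand far above all other members, Pcdhgc4 mostly through a short transcript made of constant exons for the most part. Pcdha1, Pcdha8 and Pcdhb1 sit at or near the floor.

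Position along the locus and level were weakly related within a class. Across the 12 alternate alphas the rank correlation of level with order was 0.36, across the 22 betas 0.32 and across the 18 gamma A and B isoforms -0.04. With the percent of own 31-base windows it was -0.14, -0.37 and 0.17. These are descriptions across genes that share reads and libraries. The spread over libraries of the members was close to that of other genes: the median coefficient of variation was 18.5% over the 52 members that passed the filter and 15.5% over the 15026 others.

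Most members rested on 1 transcript. The annotation gave 36 members a single transcript and 21 members more, and in 12 of these 21 the leading transcript held at least 90% of the gene's TPM. Pcdha2, Pcdha6 and Pcdha11 were divided most evenly, with leading shares of 54.2%, 54.0% and 57.7%. Pcdhgc3 was carried by its full-length transcript (ENSMUST00000076807), 4687 nucleotides long, at 71.5 ± 12.4 TPM (SD, n = 15) or 92.5% of the gene.

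Pcdhgc4 was the exception among the leading genes. Of its TPM, 81.6% was assigned to a short transcript (ENSMUST00000195239) of 2272 nucleotides annotated as protein coding, of which 93.3% is gamma constant exons and 153 bases are its own. Only 6.74% of its 31-base windows occur in no other gene. Its level was 71.2 ± 23.2 TPM, against 14.9 ± 3.54 TPM for the full-length transcript (ENSMUST00000066140), which has 2905 bases of its own and 58.1% own windows. Without the short transcript, the C-type share of gamma TPM was 42.1% in place of 55.9%, and the gamma share of all members was 63.8% in place of 70.0%. The full-length transcript alone was close to Pcdhga11, at 15.7 TPM.

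Levels of the short Pcdhgc4 transcript varied by library. In the AVP males 1, 2, 8 and 9 it was at 77.1, 49.9, 77.1 and 91.3 TPM, and in the vehicle males 4, 5, 12 and 13 at 52.2, 70.2, 50.8 and 43.7 TPM. In the AVP females 3, 10 and 11 it was at 64.2, 35.9 and 114.9 TPM, and in the vehicle females 6, 7, 14 and 15 at 95.6, 97.6, 57.0 and 90.3 TPM. Both the lowest and the highest library were AVP females, and the groups overlapped in both genders.

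Those levels moved with a library's overall balance between long and short transcripts. This balance, called the length trend, was the median log2 ratio to the mean library of 1674 genes whose leading transcript was at least 5000 nucleotides long minus that of 2367 genes of at most 1500 nucleotides, all at 5 TPM or more in every library and with the members left out. It was lowest in AVP female 11, at -0.34, and highest in AVP female 10, at 0.28. Over 15 libraries, the short Pcdhgc4 transcript fell with the length trend (Pearson's r = -0.83, permutation p = 0.00014, adjusted 0.00021; Spearman's rho = -0.74, permutation p = 0.00197, adjusted 0.00295, two-sided, 3 relations computed). Without AVP females 10 and 11, the libraries farthest out, r was -0.67 (n = 13, permutation p = 0.012). The labels number the libraries in 2 runs, called here 1 to 7 and 8 to 15. Within the first run it was -0.74 (n = 7, exact permutation p = 0.0599), and within the other run it was -0.91 (n = 8, exact permutation p = 0.000248). The 3 relations were chosen after the data were seen, so their p-values are not those of planned tests.

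The full-length Pcdhgc3 transcript went the opposite way to the short Pcdhgc4 transcript. Across 15 libraries rho was -0.83 and r was -0.91. Without AVP female 11 and vehicle female 15 r was -0.87 (n = 13), within libraries 1 to 7 it was -0.89 (n = 7) and within libraries 8 to 15 it was -0.95 (n = 8). Both transcripts hold the same constant exons and draw on the same total, so the measurements are not independent of each other. A permutation p assumes independence, so none is given here and these values are descriptions. Full-length Pcdhgc3 itself rose with the length trend over all libraries (r = 0.76, permutation p = 0.00132, adjusted 0.00132; rho = 0.51, permutation p = 0.0563, adjusted 0.0563). Without AVP females 10 and 11 r was 0.42 (n = 13, permutation p = 0.153). Within libraries 1 to 7 it was 0.76 (n = 7, exact permutation p = 0.0611) and within libraries 8 to 15 it was 0.89 (n = 8, exact permutation p = 0.00268).

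**Figure D3:**
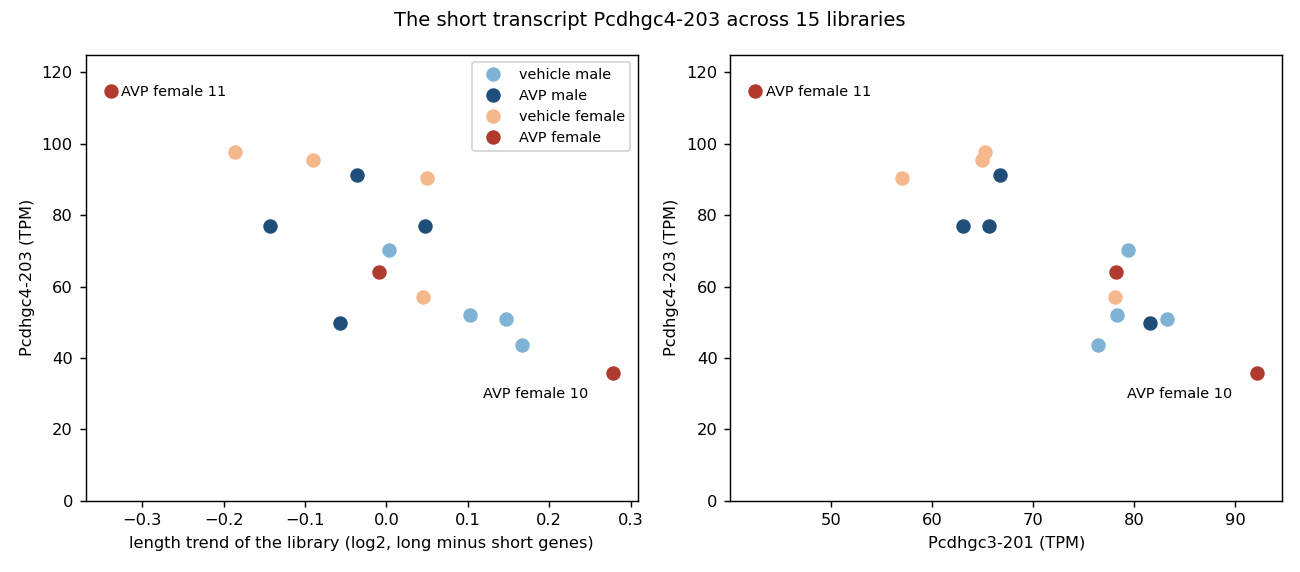
Points are the 15 libraries, coloured by group, with TPM of the short Pcdhgc4 transcript on the vertical axes. The horizontal axes show the length trend (log2, left) and TPM of the full-length Pcdhgc3 transcript (right), and in both panels AVP female 11, at 114.9 TPM, and AVP female 10, at 35.9 TPM, are at the ends of a falling relation.

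In males, the comparison of AVP with vehicle asks whether maternal vasopressin shifts the choice or the level of the isoforms in sons. The cluster sums overlapped. Alpha measured 75.01, 85.1, 73.5 and 64.3 TPM in the AVP males 1, 2, 8 and 9, against 77.7, 67.9, 79.4 and 73.8 TPM in the vehicle males 4, 5, 12 and 13. Beta was at 54.9, 63.8, 53.6 and 48.7 TPM against 58.1, 52.9, 61.8 and 60.2 TPM. Gamma was at 287.5, 314.0, 285.9 and 303.1 TPM against 307.4, 306.6, 301.0 and 282.6 TPM. AVP male 2 had the highest sum of all 3 clusters among the males.

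By gene, 52 members reached 1 TPM in 50% or more of the male libraries and were tested with limma on log2(TPM + 0.5) in 1 fit of 15271 genes. None (0) had an adjusted p under 0.05, where 0.00655% of all genes did, and the lowest adjusted p of a member was 0.304. At an unadjusted p under 0.05 there were 5 members, 9.62% of those tested, against 13.5% of all genes. These were Pcdhgb1, Pcdhb8, Pcdhga11 and Pcdhga1 with lower values under AVP, and Pcdhgc4 with higher ones. Without the library labelled vehicle male 12, again 0 members had an adjusted p under 0.05. The median log2 fold change of the members was -0.06, and that of all genes tested was -0.10. By cluster it was -0.0017 in alpha (5 of 12 above 0), -0.05 in beta (4 of 19) and -0.15 in gamma (2 of 21). Members above 0 numbered 11 of 52, or 21.2%, against 26.4% of all genes. Quantile normalization moved the median of all genes by 0.12, and the members above 0 then numbered 36 of 52 rather than 11. Median-of-ratios scaling moved that median by 0.11, and the members above 0 numbered 31 of 52. Relative to the median of all genes the members were at 0.04 as reported, and at 0.07 and 0.03 after these scalings. Gamma was at -0.04 as reported, and at -0.03 and -0.04 after them.

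Pcdhgb1, the first gamma B isoform along the locus, had the smallest p. It measured 5.51, 6.36, 4.37 and 5.35 TPM in the AVP males 1, 2, 8 and 9, against 7.93, 7.39, 7.10 and 7.86 TPM in the vehicle males 4, 5, 12 and 13. All 4 AVP values lay below all 4 vehicle values, and the log2 fold change was -0.46 ± 0.126 (SE, limma, adjusted p = 0.304). Without vehicle male 12 it was -0.49 ± 0.145 (adjusted p = 0.612). Such a gap between groups was seen in 3 members, Pcdhgb1, Pcdhga9 and Pcdhgb4, all with AVP below vehicle. They were 5.77% of the members tested, and 7.27% of all genes tested in males had groups that did not overlap.

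Pcdhgc4 measured 94.6, 73.3, 94.0 and 104.0 TPM in the AVP males, against 72.4, 83.1, 66.4 and 58.9 TPM in the vehicle males. Here AVP was higher except in AVP male 2, which fell within the vehicle range. The log2 fold change was 0.38 ± 0.131 (SE, limma, adjusted p = 0.316), and without vehicle male 12 it was 0.36 ± 0.149 (adjusted p = 0.612). When the short Pcdhgc4 transcript was left out of the gene it was 0.12 ± 0.190 (adjusted p = 0.801), and with the length trend as a covariate it was 0.20 ± 0.197 (adjusted p = 0.996). The length trend was -0.14, -0.06, 0.05 and -0.04 in the AVP males and 0.10, 0.00, 0.15 and 0.17 in the vehicle males, so it was lower in the AVP group apart from AVP male 8.

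Pcdhb8, a beta isoform, measured 3.07, 3.55, 2.45 and 2.14 TPM in the AVP males, against 3.19, 4.55, 3.91 and 4.57 TPM in the vehicle males. Only AVP male 2 was above the lowest vehicle library. The log2 fold change was -0.47 ± 0.181 (SE, limma, adjusted p = 0.330), and without vehicle male 12 it was -0.48 ± 0.209 (adjusted p = 0.612). A part of the gene's TPM, 32.4%, came from a short transcript of 462 nucleotides. In the fit by transcript, that one had a log2 fold change of -0.85 ± 0.302 (SE, limma, adjusted p = 0.375). The other, of 3334 nucleotides and with 67.6% of the gene's TPM, was at -0.14 ± 0.200 (adjusted p = 0.790).

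The remaining C-type isoforms did not pass the test in males. Pcdhgc3 was at 68.4, 83.3, 73.7 and 76.4 TPM with AVP, against 83.5, 83.6, 88.1 and 78.9 TPM with vehicle (log2 fold change -0.15 ± 0.073, adjusted p = 0.405). Pcdhac2 was at 11.3, 13.7, 11.3 and 10.5 TPM with AVP, against 13.3, 10.8, 13.7 and 13.2 TPM with vehicle (-0.12 ± 0.115, adjusted p = 0.668). Pcdhac1 ran from 1.59 to 1.77 TPM with AVP and from 1.49 to 2.07 TPM with vehicle, and Pcdhgc5 from 1.57 to 2.54 and from 1.56 to 3.18 TPM. For each of these 4 isoforms the groups overlapped.

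Of the 5 members under the filter in males, Pcdha8 was chosen for mention after its values were seen. It measured 0.282, 0.298, 0.199 and 0.0578 TPM in the AVP males, against 0.323, 0.361, 0.786 and 0.624 TPM in the vehicle males. The groups did not overlap, with or without vehicle male 12, the highest library, but all values were under 1 TPM. In the fit without a filter its log2 fold change was -0.52 ± 0.187 (SE, limma, adjusted p = 0.4996). The other 4 were Pcdha1, Pcdhb1, Pcdhb2 and Pcdhb14.

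**Figure D4:**
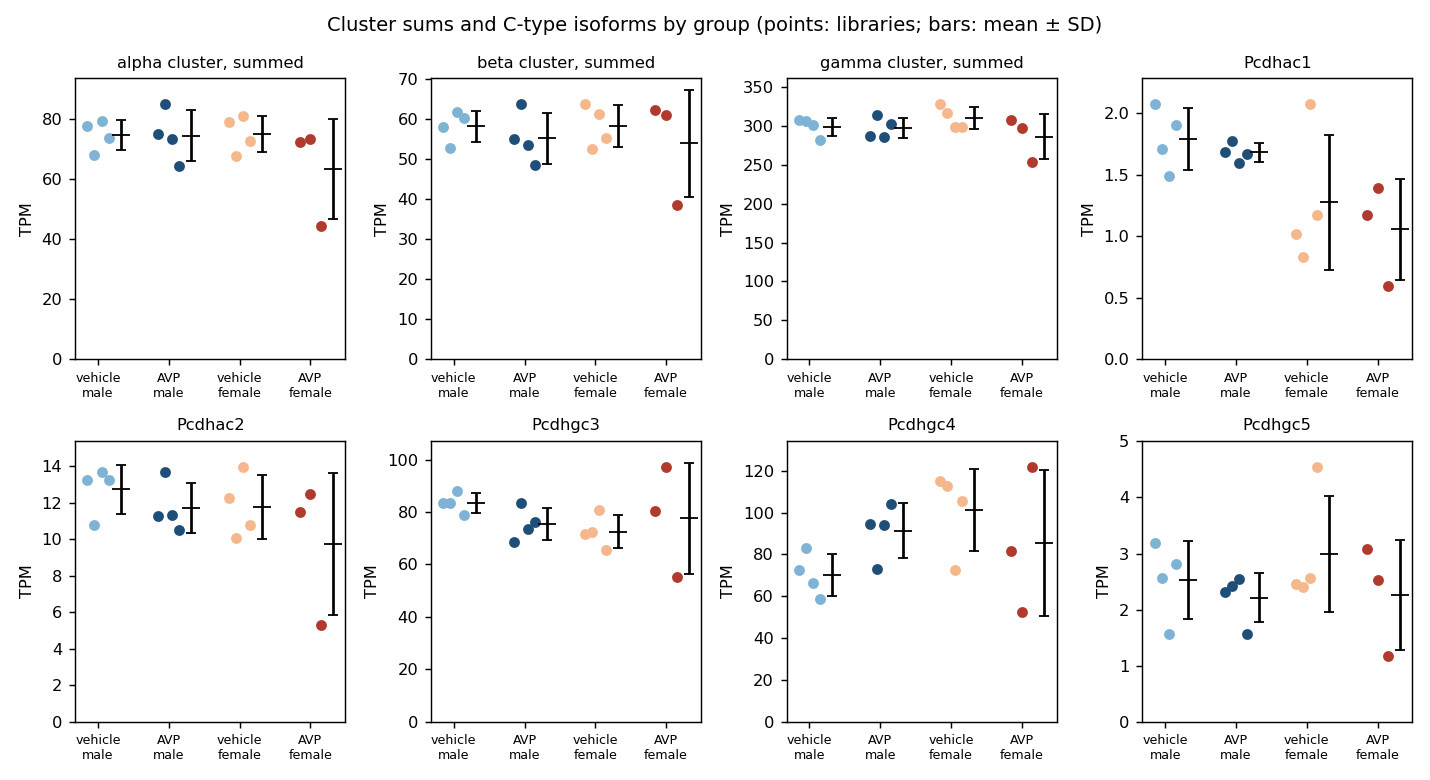
Points are libraries in TPM, with mean ± SD bars, for the 3 cluster sums and the 5 C-type isoforms in the 4 groups. The groups overlap in each panel, and AVP female 11 is the lowest AVP female in each panel except Pcdhgc4, where it is the highest of all libraries, at 122.0 TPM.

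In females, the direction rested on AVP female 11. Alpha was at 72.6, 73.4 and 44.3 TPM in the AVP females 3, 10 and 11 and at 79.0, 67.8, 81.2 and 72.7 TPM in the vehicle females 6, 7, 14 and 15. Beta was at 62.3, 61.1 and 38.6 TPM against 63.8, 52.7, 61.4 and 55.2 TPM. Gamma was at 307.4, 298.0 and 253.5 TPM against 328.6, 316.6, 298.8 and 299.2 TPM. AVP females 3 and 10 were within the vehicle range in alpha and beta and within or just under it in gamma, and AVP female 11 was under it in all 3.

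Of 53 members tested in 1 fit of 15132 genes, 0 had an adjusted p under 0.05 by limma, as did 0% of all genes. At an unadjusted p under 0.05 there were 0 members, against 4.51% of all genes. Fold changes were above 0 in 5 members, or 9.43%, against 36.9% of all genes tested. The members' median was -0.18, against -0.05 over all genes tested. Without AVP female 11, 37 of the 53 were above 0, with a median of 0.07 against 0.03 over all genes. In that fit, too, 0 had an adjusted p under 0.05. With AVP female 11 kept, in 0 members did the groups not overlap, against 5.55% of all genes. Meningeal markers moved with the groups: their sum ran from 369 to 497 TPM in the AVP females and from 194 to 261 TPM in the vehicle females, 9 of 10 had an unadjusted p under 0.05, and none was listed at 0 in all libraries. Endothelial markers summed to 180 to 184 TPM against 100 to 162 TPM, with 4 of 7 tested at an unadjusted p under 0.05, all higher. Oligodendrocyte precursor markers summed to 34.8 to 63.3 TPM against 65.1 to 100.5 TPM, with 3 of 6 at an unadjusted p under 0.05, all lower. Red blood cell markers summed to 5130 to 13660 TPM against 2241 to 5708 TPM. These sums overlapped between the groups, but 5 of 5 tested had an unadjusted p under 0.05, all higher. None of these marker genes had an adjusted p under 0.05 (limma). Their part in the members' values was not tested.

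The smallest p in females fell on neighbouring alpha isoforms. Pcdha4 was at 6.60, 5.56 and 4.74 TPM in the AVP females and at 8.43, 7.19, 6.37 and 8.02 TPM in the vehicle females. AVP female 3 overlapped the vehicle group, and the log2 fold change was -0.39 ± 0.174 (SE, limma, adjusted p = 0.999). Pcdha5 was at 5.42, 7.17 and 4.19 TPM against 6.90, 6.72, 7.96 and 7.98 TPM (-0.40 ± 0.197, adjusted p = 0.999). Pcdha3 was at 5.63, 4.32 and 3.86 TPM against 5.38, 5.53, 5.81 and 6.56 TPM (-0.32 ± 0.178, adjusted p = 0.999). In Pcdha5 and Pcdha3, too, 1 AVP library lay within the vehicle range. Without AVP female 11 the fold changes were -0.28, -0.22 and -0.21 for Pcdha4, Pcdha5 and Pcdha3.

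Among the C-type isoforms, Pcdhgc4 was at 81.8, 52.5 and 122.0 TPM in the AVP females and at 115.0, 112.6, 72.6 and 105.6 TPM in the vehicle females. Pcdhgc3 was at 80.4, 97.3 and 55.3 TPM against 71.5, 72.3, 80.9 and 65.4 TPM. The AVP libraries lay on both sides of the vehicle libraries for both genes, in opposite order. Pcdhac2 was at 11.49, 12.5 and 5.30 TPM against 12.3, 10.04, 13.98 and 10.8 TPM, low in AVP female 11 alone. Pcdhac1 ran from 0.598 to 1.39 TPM against 0.833 to 2.08 TPM, and Pcdhgc5 from 1.17 to 3.09 TPM against 2.41 to 4.55 TPM.

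**Figure D5:**
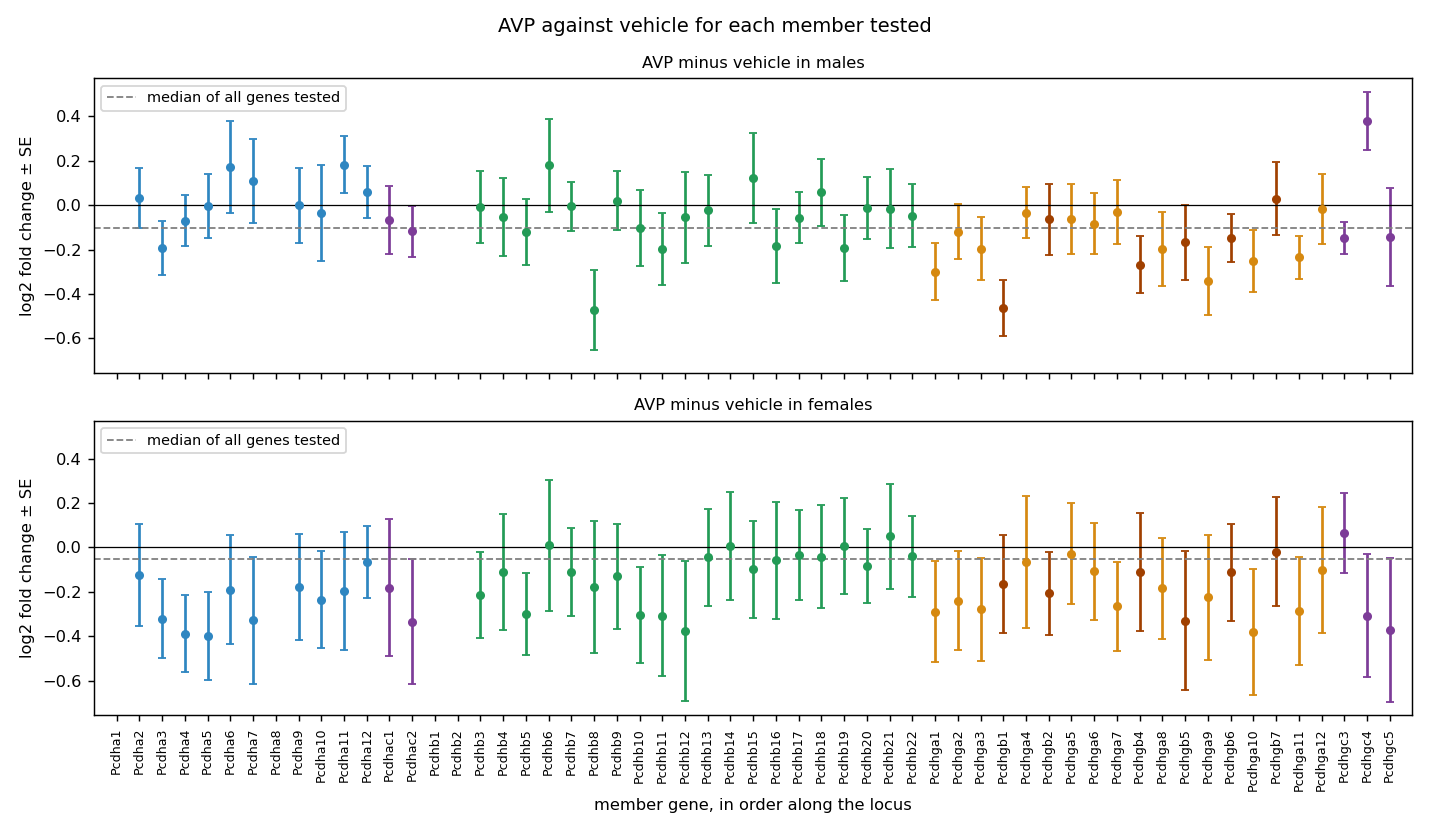
Points are limma's log2 fold changes of AVP over vehicle for each member tested, with SE bars, in order along the locus, for males (top) and females (bottom), and the dashed lines are the medians of all genes tested. Most points lie a little below 0 in both genders, Pcdhgb1 (-0.46) and Pcdhb8 (-0.47) lie lowest in males, and Pcdhgc4 is the highest in males, at 0.38.

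By transcript the result was the same in kind. In males 0 of 61 member transcripts had an adjusted p under 0.05 in a fit of 39364 transcripts, of which 0.00762% did, and 3 had an unadjusted p under 0.05, against 12.1% of all. In females 0 of 59 passed among 37806 transcripts, of which 0% did, and 0 had an unadjusted p under 0.05, against 3.06% of all. The short Pcdhgc4 transcript had a log2 fold change of 0.43 ± 0.200 in males (SE, limma, adjusted p = 0.425), and the full-length Pcdhgc3 transcript had -0.20 ± 0.088 (adjusted p = 0.411).

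The difference between the genders in the response to AVP was tested over all 15 libraries. Of 52 members, 0 had an adjusted p under 0.05 for the interaction (limma), as did 0% of the 15078 genes tested, and 1 had an unadjusted p under 0.05, against 4.14% of all genes. That member was Pcdhgc4, with a female minus male difference of -0.69 ± 0.320 in log2 fold change (adjusted p = 0.896). Leaving out the short Pcdhgc4 transcript made it -0.46 ± 0.366 (adjusted p = 0.896), and the length trend as a covariate made it -0.37 ± 0.206 (adjusted p = 0.787). It was -0.38 ± 0.270 without AVP female 10 and -0.98 ± 0.278 without AVP female 11 (adjusted p = 0.997 and 0.610). Next came Pcdha5 at -0.40 ± 0.236 and Pcdha4 at -0.32 ± 0.190, both with an adjusted p of 0.896. The median difference of the members was -0.11, against 0.07 for all genes. Without AVP female 11 it was 0.14, against 0.15 for all genes. Without vehicle male 12 it was -0.12, and Pcdhgc4 no longer had an unadjusted p under 0.05.

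With the genders joined and gender as a term, 0 of 52 members had an adjusted p under 0.05 (limma), as did 0% of all genes, and 4 had an unadjusted p under 0.05, against 10.4% of all genes. The smallest p were those of Pcdhgb1 at -0.33 ± 0.123, Pcdha3 at -0.25 ± 0.095 and Pcdhga1 at -0.29 ± 0.121 (adjusted p = 0.462, 0.462 and 0.47). Pcdhga1, the first gamma A isoform, was at 6.47, 7.75, 5.30 and 5.67 TPM in the AVP males, at 7.62, 7.85, 7.49 and 8.21 TPM in the vehicle males, at 6.05, 6.54 and 3.63 TPM in the AVP females and at 6.64, 6.41, 7.87 and 5.42 TPM in the vehicle females. Its groups overlapped in both genders. The members' median was -0.11, against -0.08 for all genes, and without AVP female 11 it was -0.02, against -0.04. Above 0 were 9 of 52 members, or 17.3%, against 26.1% of all genes. They were 22 of 52 after quantile normalization and 20 of 52 after median-of-ratios scaling, which moved the median of all genes by 0.08 and 0.07. Relative to that median the members were at -0.03 as reported, and at -0.03 and -0.04 after these scalings.

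Between the genders, with treatment as a term, 0 of 52 members had an adjusted p under 0.05 (limma), as did 0% of all genes, and 2 had an unadjusted p under 0.05, against 1.39% of all genes. Pcdhac1, whose promoter stands between the alternate alphas and Pcdhac2, was at 1.69, 1.77, 1.59 and 1.67 TPM in the AVP males, at 2.07, 1.71, 1.49 and 1.91 TPM in the vehicle males, at 1.18, 1.39 and 0.598 TPM in the AVP females and at 1.02, 0.833, 2.08 and 1.18 TPM in the vehicle females. Females were lower than all males except for vehicle female 14, which was the highest library. The library labelled vehicle male 12 was the lowest of the males. The female minus male difference was -0.46 ± 0.156 (SE, limma, adjusted p = 0.99997). Pcdhga2 at -0.28 ± 0.120 and Pcdhga8 at -0.28 ± 0.134 followed (adjusted p = 0.99997 for both). Without vehicle male 12, the differences were -0.50 ± 0.165 for Pcdhac1, -0.30 ± 0.129 for Pcdhga2 and -0.24 ± 0.141 for Pcdhga8 (adjusted p = 0.9998 for each). Above 0 were 15 of 52 members, or 28.8%, against 47.3% of all genes. They were 17 of 52 without vehicle male 12 and 30 of 53 without AVP female 11, with no share of all genes given for these fits.

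Genes that work with the members were examined as 3 lists. Of 18 genes for promoter choice (CTCF, cohesin and its loaders, DNA methyltransferases, Smchd1, Setdb1 and partners), all were measured at 1 TPM or more on average and 0 passed in any of the 5 comparisons. In males, Mau2, part of the cohesin loader, had a log2 fold change of -0.32 ± 0.086 and Wiz, a partner of CTCF-bound chromatin loops, one of -0.20 ± 0.073 (limma, adjusted p = 0.304 and 0.320), and the list's median was -0.08. In females, Nipbl, the other part of the loader, was at 0.23 ± 0.189 and Rad21, a cohesin subunit, at 0.11 ± 0.110 (adjusted p = 0.999 for both), and the median was 0.00. Mean levels ran from 2.10 TPM for Dnmt3b, a DNA methyltransferase that acts on alternate promoters, to 342 TPM for Trim28, and Ctcf was at 81.5 ± 8.05 TPM.

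Of 16 genes for intracellular partners and processing, 0 passed in any of the 5 comparisons. Ptk2b, a kinase bound by the alpha and gamma tails, had a log2 fold change of -0.47 ± 0.217 in males and -0.49 ± 0.226 in females (limma, adjusted p = 0.380 and 0.999). Wasf1, a subunit of the WAVE complex that alpha tails recruit, was at -0.18 ± 0.134 in females (adjusted p = 0.999).

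The 11 nonclustered protocadherins, adhesion proteins encoded outside the locus, likewise gave 0 calls in the 5 comparisons. Their summed level, 94.6 to 175 TPM over libraries, was lowest in AVP female 11. Pcdh8 was the highest at 29.2 ± 3.497 TPM, above all members but Pcdhgc3 and Pcdhgc4. In males, Pcdh11x and Pcdh19 had the smallest p (0.50 ± 0.321 and 0.17 ± 0.122, limma, adjusted p = 0.503 and 0.534), and in females Pcdh10 and Pcdh20 did (-0.37 ± 0.268 and -0.42 ± 0.345, adjusted p = 0.999 for both).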

How the data were processed

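Trimmed reads were pseudoaligned by the authors to GENCODE M16 transcripts (GRCm38) and quantified with Kallisto 0.43.1, after Trim Galore 0.4.1. The deposited values, by transcript and library, carry no named unit. They sum to 1000000 in each library, so they were read as TPM made by the authors, with no other scaling between libraries. Depth per library is therefore unknown and no count model was used.

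The 133849 transcript rows were summed to genes with GENCODE M21, leaving out 404 without a gene there. Genes at 1 TPM or more in at least 50% of the libraries of a fit were tested on log2(TPM + 0.5) with limma 3.58.1 (R 4.3.3) with a mean-variance trend, two-sided, with Benjamini-Hochberg adjustment over all genes tested. A fold change on this scale understates that of low genes. Fits were tested on simulated data. Members and lists were chosen with earlier results of these data known. Named were the C-type isoforms, the 3 highest and 3 lowest members of each cluster, the 3 smallest p in each comparison, and up to 2 genes of each list with the smallest p. The result for 1 gene of the lists is not reported here. Correlations used 100000 permutations, or exact permutation under 10 libraries. Libraries were permuted freely across groups and littermates, which treats all of them as independent. No sequences were printed, and the authors' own tests were not repeated. Alternatives were other scalings, filters, pseudocounts, no trend, the run of library numbers as a covariate, protein-coding transcripts only and leaving out each library. The 3 relations across libraries, the length covariate, the runs without the short Pcdhgc4 transcript and the shares without AVP female 11 were chosen after seeing the data.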

Additional observations from a re-analysis of the deposited data

Results flagged for a closer look

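Within groups of 4 libraries, 110 sets of values were examined for a library far from the rest, its gap to the nearest of the others taking more of the range than Dixon's critical value allows, and 6 met this. Chance flags about 1 group in 20, so this number gives no pattern. Pcdhac2 was at 10.8 TPM in vehicle male 5, against 13.2 to 13.7 TPM in the other vehicle males. Pcdhgc5 was at 4.55 TPM in vehicle female 15, against 2.41 to 2.57 TPM in the other vehicle females. Pcdha8 was at 0.439 TPM in vehicle female 6, against 0.322 to 0.339 TPM. Pcdhga11 was at 16.1 TPM in AVP male 2, against 13.5 to 13.9 TPM in the other AVP males. Pcdhgb4 was at 4.37 TPM in the library labelled vehicle male 12, against 3.95 to 4.01 TPM in the other vehicle males. The full-length transcript of Pcdhgc4 was at 18.6 TPM in vehicle female 6, against 13.3 to 14.1 TPM. The AVP females, with 3 libraries, were not examined in this way.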

How the results depend on the processing

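Every count of members past the threshold was 0, for genes and transcripts, and stayed 0 in all 124 alternatives. The median fold change kept within the spread between libraries in 115 of 117 alternatives. In males it was 0.090 after quantile normalization. Leaving out each library gave -0.15 to -0.03 in males, -0.29 to 0.07 in females, -0.22 to 0.14 for the interaction (0.14 without AVP female 11), -0.15 to -0.02 with the genders joined and -0.10 to 0.05 between the genders. The 15 fold changes named by smallest p kept their sign and stayed short of the threshold in 338 alternatives. Without the short Pcdhgc4 transcript the alpha share was 20.3%, the beta share 15.9%, the gamma share 63.8% and the C-type share of gamma 42.1%, and the other alternatives moved no share by more than its spread. Leaving out vehicle male 12 or AVP female 11 gave alpha 16.8% to 17.1%, beta 13.1% to 13.3%, gamma 69.6% to 70.1% and C-type shares of 17.8% to 18.2% in alpha and 54.9% to 56.2% in gamma. No paired analysis was possible because the labels give every library its own number. Without read counts, low members such as Pcdha8 and Pcdhb1 have no known counting error.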

Other observations

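Several noncoding and other genes of the locus were measured beside the members. Taf7, a protein-coding gene on the opposite strand between the beta and gamma arrays, averaged 13.3 TPM and ran from 11.8 to 15.3 TPM over the 15 libraries. BC037039, an antisense transcript at the Pcdhgc3 exon, averaged 4.79 TPM (3.45 to 5.51 TPM), and Gm38182, a transcript on the members' strand near Pcdhgc5, averaged 2.57 TPM (0.541 to 4.82 TPM). Gm10544 averaged 2.36 TPM and Gm26672 averaged 1.95 TPM, and the polymorphic pseudogene Pcdhgb8 averaged 0.596 TPM, below every gamma member.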
